A study of Mus musculus with 16 samples.

Results

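The 40 genes described here encode the machinery that makes ribosomes in the nucleolus. They were listed by name for that role, and each was measured by its brightest probe set that carries 1 gene symbol on a mouse expression array. Of the 40, 39 had such a probe set, among 22180 genes named on the array. The exception was Fbl, the fibrillarin methyltransferase, whose probe set is shared with another gene symbol, so no level is given for it. All values are log2 levels, so a difference of 1 is a 2-fold change.

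The arrays compared small intestinal cells of C57Bl/6 mice aged 8 to 10 weeks in 5 groups. Adenoma cells came from 4 Apc+/1638N mice, animals with 1 mutant copy of the tumour suppressor Apc (P21, P23, P34 and P36, on 6 arrays, P21 and P34 having a technical repeat each). Wild-type epithelial organoids in co-culture with myofibroblasts, and the same organoids in monoculture, came from 2 mice (P28 and P30). Wild-type myofibroblasts, called fibroblasts below, in co-culture with epithelium and in monoculture came from 3 mice (Pl_I, Pl_II and Pl_III). In co-culture the fibroblasts sat on an insert with pores of 0.4 µm above organoids held in Matrigel, so the cells shared medium without touching, and the cultures ran for 24 h in a basal medium. The labels give 1 culture protocol, written for wild-type crypts, and do not say how the adenoma cells were kept, so genotype, tumour state and handling cannot be told apart in any comparison with adenoma. The titles of P21 and P23 carry the token T2, which the labels do not explain.

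Ribosome production starts when RNA polymerase I transcribes the ribosomal DNA repeats into a long precursor RNA. Small nucleolar ribonucleoproteins modify that precursor, and separate sets of factors then cut and fold it into the small and the large subunit. The process takes up much of the biosynthetic effort of a dividing cell, its genes are textbook targets of the transcription factor Myc, and in the intestine it is known to be active in the dividing cells of the crypt.

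The labelled cell types were checked against their markers. The mean of 12 epithelial markers was 9.86 to 10.54 in adenoma and 11.23 to 11.57 in the epithelial cultures, against 3.14 to 3.62 in fibroblast cultures, and the mean of 12 fibroblast markers was 10.27 to 10.80 in fibroblast cultures and 3.35 to 4.00 elsewhere. The fibroblast cultures also held immune cell transcripts: the mean of 13 immune markers was 8.57 to 9.23 there and 3.68 to 3.97 in the other samples. All animals were labelled male, but in the 4 cultures of P28 and Pl_III the X-inactivation transcript Xist was at 7.57 to 8.29 and the Y-linked Eif2s3y at 2.53 to 3.20, against 1.87 to 2.81 and 7.37 to 8.46 in the other 10 samples, so these 4 libraries go against their label. One fibroblast monoculture array is titled Pl_III and described elsewhere in its labels as Pl_II, and the title was followed. Its Xist of 8.25 and Eif2s3y of 2.53 go with the title: the Pl_III co-culture had 8.29 and 3.20, and the Pl_II co-culture 1.87 and 8.08. Technical repeat arrays differed over the 39 genes with an SD of 0.10 (P21) and 0.11 (P34).

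Averaged over the 39 genes, levels were highest in adenoma, lowest in epithelium alone, and between these in the other 3 groups. Their mean level per sample was 9.19, 9.24, 9.08 and 9.13 in adenoma, 7.82 and 8.02 in co-cultured epithelium and 7.14 and 7.27 in monocultured epithelium. In fibroblasts it was 8.15, 8.24 and 8.12 in co-culture and 8.07, 8.42 and 8.09 in monoculture. The 3 epithelial groups did not overlap in this mean, and neither fibroblast group overlapped adenoma or either epithelial group, whereas the 2 fibroblast groups overlapped each other. Over all 18095 genes tested, the mean level per sample lay between 5.57 and 5.65. In bulk samples such as these, more cells of a type and more RNA per cell cannot be told apart.

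**Figure D1:**
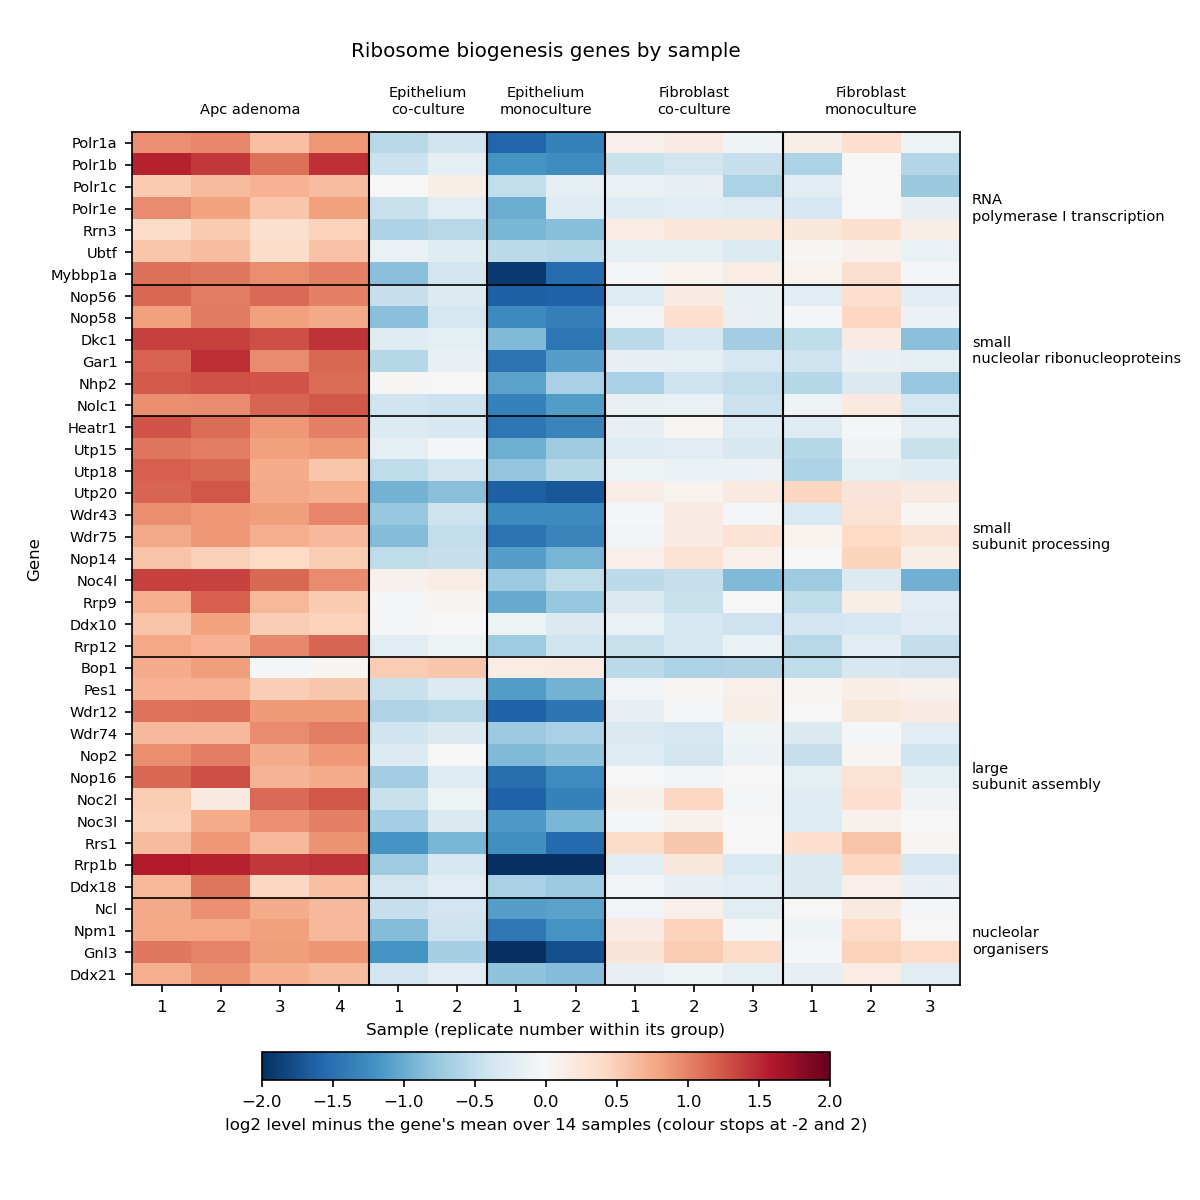
Level of each of 39 ribosome biogenesis genes (rows, grouped by role) in each of 14 samples (columns), as log2 level minus that gene's mean over the samples. Adenoma columns are red for nearly every gene, and the monocultured epithelium columns are blue for nearly every gene. Bop1 differs from this, being near its mean in adenoma samples 3 and 4 (P34 and P36) and slightly above it in monocultured epithelium.

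Against monocultured epithelium, 38 of the 39 genes were higher in adenoma and none was lower, where 22.5% of all genes tested were called higher and 18.5% lower (limma, Benjamini-Hochberg adjusted p under 0.05). The median difference of the 39 was 2.07, against -0.03 over all genes, and the range was 0.24 to 3.73. The same 38 genes had no overlap between the adenoma and monoculture samples, as had 28.7% of all genes on the higher side. Against co-cultured epithelium, 38 of 39 were again higher and none lower, with a median of 1.27, where 19% of all genes were called higher and 14.3% lower. The split over all genes depended on scaling in both comparisons, and the shares given here and below are as deposited. Against monoculture, 4069 were higher and 3353 lower as deposited, and 3496 higher and 3868 lower after cyclic loess. Against co-culture, 3439 were higher and 2583 lower as deposited, and 2730 higher and 3110 lower after cyclic loess. Under cyclic loess 38 of the 39 were higher against monoculture and 36 against co-culture. The groups again did not overlap for 38, as for 27.5% of all genes on the higher side. Largest over co-culture were Rrp1b with 2.01 ± 0.22, Gnl3 with 1.87 ± 0.18, Utp20 with 1.86 ± 0.16 and Rrs1, a large subunit assembly factor, with 1.81 ± 0.20. A dimmer probe set of Rrs1 differed by less, with means of 6.94 in adenoma and 5.83 in co-cultured epithelium. Bop1 was the gene not called in either comparison. Genes of the cell cycle moved with the ribosome genes: 18 of 19 were higher in adenoma than in monocultured epithelium, with a median difference of 3.43. Of the 12 epithelial markers 4 were lower (Vil1, Cdx2, Cdhr5 and Krt20) and 1 was higher, and of the 13 immune markers 2 were higher (Cd68 and Cd14) and 1 lower (Itgam). The part of these genes in the result was not tested.

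These genes were also higher in epithelium co-cultured with fibroblasts than in epithelium alone, by less. Of the 39, 16 were higher in co-culture and none was lower, where 2.71% of all genes were called higher and 1.32% lower (limma). All 39 differences were positive, where 47.7% of all genes had a positive difference, and the median was 0.72 against -0.02 over all genes. The groups did not overlap for 38 of the 39, as for 25.5% of all genes on the higher side. Polr1e was the gene whose groups overlapped. Within each animal, all 39 genes were higher in co-culture, with a median of 0.64 in P28 and 0.69 in P30. With 2 samples a group the number called was sensitive to each library: it was 7 without the P28 co-culture, 3 without the P30 co-culture, 3 without the P28 monoculture and 10 without the P30 monoculture. Without P28 and Pl_III, which leaves 1 epithelial sample a group, assumed to vary like the other groups, 0 were called, while 39 of 39 stayed positive with a median of 0.69. The count was also 0 in a fit on the 4 epithelial samples only. That fit called 0 of all 18095 genes higher and 0 lower, so its 0 is not particular to the 39. In each fit that left out a library, or P28 and Pl_III, fewer of all genes were called higher too. The 19 cell cycle genes were all positive in the same comparison, 5 of them called, with a median of 1.38, and this too was not tested as a source of the result.

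**Figure D2:**
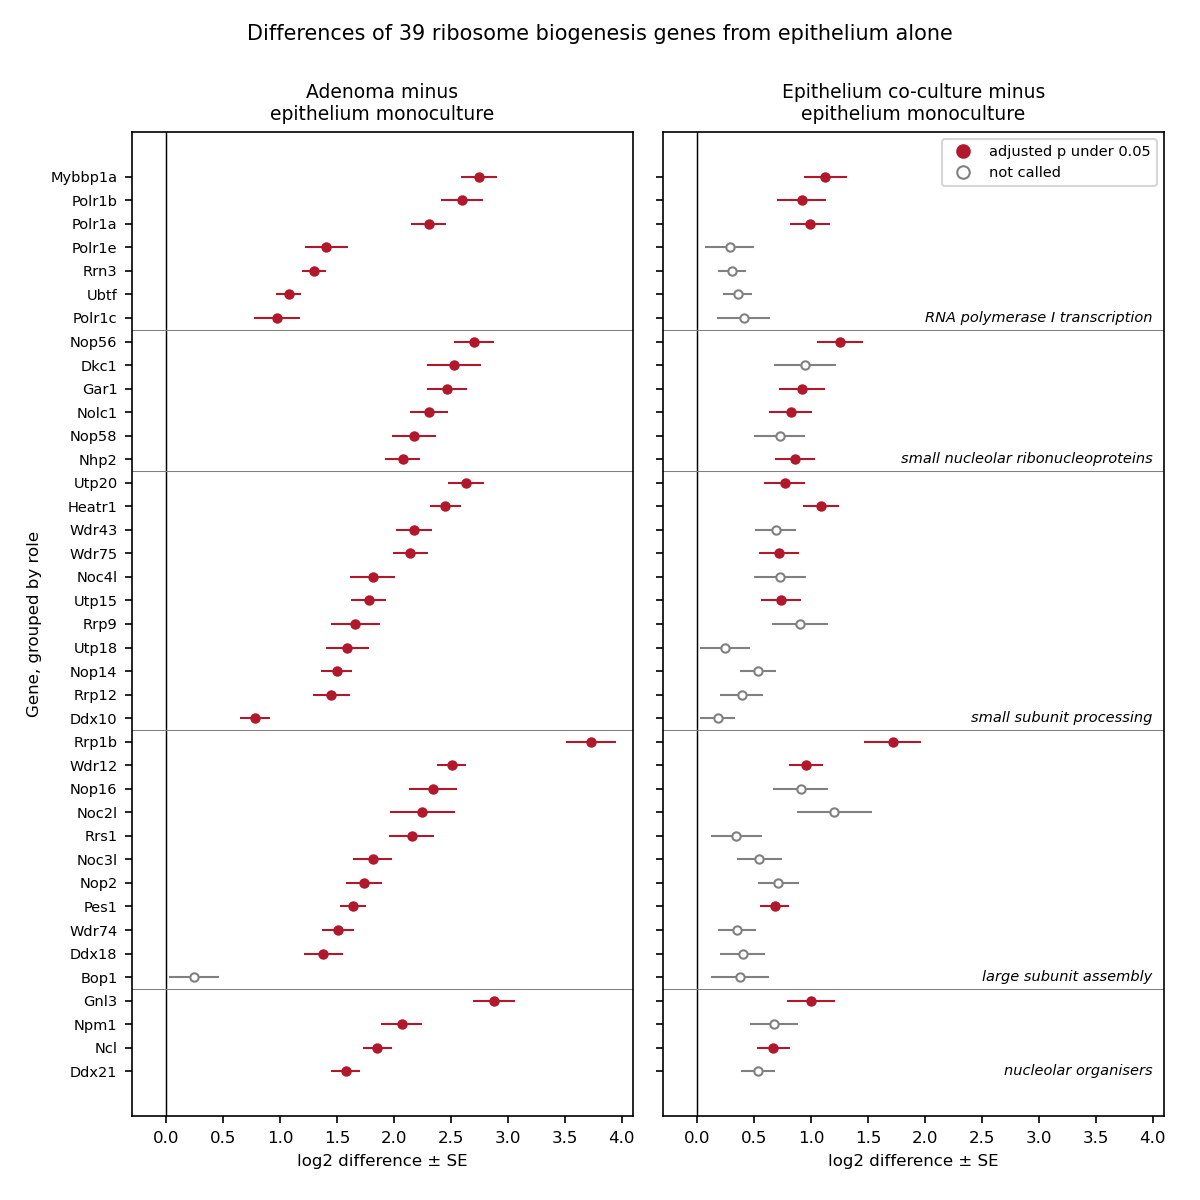
Log2 difference from monocultured epithelium (horizontal axis, bars are the standard error of the fit) for 39 genes grouped by role, in adenoma (left) and in co-cultured epithelium (right). Filled points have an adjusted p under 0.05: 38 on the left and 16 on the right. Over all genes, 22.5% were called higher in adenoma and 2.71% in co-culture.

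The genes of RNA polymerase I transcription were all higher in adenoma than in monocultured epithelium (7 of 7), with differences of 0.97 to 2.75. In co-culture 3 of the 7 were higher. Beside the counts for this role and those below, 22.5% of all genes were called higher in adenoma and 2.71% in co-culture. Mybbp1a, a nucleolar protein that associates with RNA polymerase I, was at 10.57, 10.51, 10.39 and 10.47 in the adenoma samples, 8.63 and 9.10 in co-cultured epithelium and 7.55 and 7.92 in monocultured epithelium. Each sample of a group lay above every sample of the next, and the differences were 2.75 ± 0.16, adjusted p = 9.76e-08 for adenoma over monoculture and 1.13 ± 0.19, adjusted p = 0.00681 for co-culture over monoculture. Polr1b, the second largest subunit of the polymerase, was at 8.01, 7.89, 7.57 and 7.94 in the adenoma samples, 6.05 and 6.30 in co-cultured epithelium and 5.28 and 5.23 in monocultured epithelium. The differences were 2.60 ± 0.18, adjusted p = 4.86e-07 for adenoma over monoculture and 0.92 ± 0.21, adjusted p = 0.0349 for co-culture over monoculture, again with no overlap. The largest subunit, Polr1a, was at 8.68, 8.73, 8.37 and 8.64 in the adenoma samples, 7.22 and 7.36 in co-cultured epithelium and 6.18 and 6.42 in monocultured epithelium. Its level was 4.94-fold higher in adenoma and 1.99-fold higher in co-culture than in monoculture (adjusted p = 2.94e-07 and 0.0101).

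For the factors that place the polymerase on the promoter, adenoma was again higher and co-culture was not called; how they compare with the subunits was not tested. Rrn3, the initiation factor that links polymerase and promoter, differed by 1.30 ± 0.11, adjusted p = 1.69e-06 between adenoma and monoculture, and by 0.30 ± 0.12, adjusted p = 0.234 between co-culture and monoculture, which was not called. Ubtf, the HMG-box protein that coats active ribosomal DNA, was at 9.86, 9.91, 9.67 and 9.89 in the adenoma samples, 9.17 and 9.06 in co-cultured epithelium and 8.78 and 8.73 in monocultured epithelium. Adenoma was 1.08 ± 0.11 above monoculture (adjusted p = 1.04e-05), and the co-culture difference of 0.36 ± 0.13 was not called (adjusted p = 0.173, 95% interval 0.07 to 0.64). Polr1c, a subunit shared with RNA polymerase III, had the smallest adenoma difference of the group, 0.97 ± 0.20, adjusted p = 0.00192. Its difference from co-culture, 0.56 ± 0.20, adjusted p = 0.0498, was called in 5 of 15 alternative settings.

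Of the small nucleolar ribonucleoprotein genes, 6 of 6 measured were higher in adenoma than in monoculture, by 2.08 to 2.70, and 4 of 6 were higher in co-culture. Nop56, a core protein of the box C/D particles that guide ribose methylation, was at 10.93, 10.81, 10.92 and 10.80 in the adenoma samples, 9.32 and 9.51 in co-cultured epithelium and 8.15 and 8.16 in monocultured epithelium. It was 6.52-fold higher in adenoma (adjusted p = 2.07e-07) and 2.38-fold higher in co-culture (adjusted p = 0.00543), and 2 dimmer probe sets of the gene gave differences of 1.63 and 2.23 for adenoma and 0.24 and 0.73 for co-culture. Dkc1, dyskerin, the pseudouridine synthase of the box H/ACA particles, was at 9.21, 9.21, 9.15 and 9.30 in the adenoma samples, 7.61 and 7.67 in co-cultured epithelium and 6.97 and 6.41 in monocultured epithelium. The groups did not overlap, and adenoma was 2.53 ± 0.24, adjusted p = 4.47e-06 above monoculture. The co-culture difference of 0.95 ± 0.27 had an adjusted p of 0.083, and of 0.0185 with the animal as a replicate block. The other box H/ACA proteins among the 39 genes were called in both comparisons: Gar1 differed by 2.47 ± 0.18 and 0.92 ± 0.20, and Nhp2 by 2.08 ± 0.15 and 0.86 ± 0.18, for adenoma and co-culture over monoculture in turn. Nolc1, a nucleolar chaperone of these particles, was at 9.55, 9.56, 9.78 and 9.85 in the adenoma samples, 8.21 and 8.18 in co-cultured epithelium and 7.26 and 7.49 in monocultured epithelium, with differences of 2.31 ± 0.17, adjusted p = 5.38e-07 for adenoma and 0.82 ± 0.19, adjusted p = 0.0356 for co-culture over monoculture.

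All 11 small subunit processing genes were higher in adenoma than in monoculture, by 0.78 to 2.63, and 4 were higher in co-culture. Utp20, a component of the small subunit processome that assembles on the nascent precursor, was at 8.96, 9.04, 8.55 and 8.51 in the adenoma samples, 6.84 and 6.96 in co-cultured epithelium and 6.16 and 6.11 in monocultured epithelium. It was 6.19-fold higher in adenoma than in monoculture (adjusted p = 1.29e-07), and in co-culture 1.7-fold higher (adjusted p = 0.0395, and 0.0509 with the replicate block). Heatr1, the UTP10 protein of the same processome, was at 9.08, 8.93, 8.68 and 8.82 in the adenoma samples, 7.54 and 7.50 in co-cultured epithelium and 6.36 and 6.49 in monocultured epithelium. The groups did not overlap, and its differences were 2.45 ± 0.14, adjusted p = 7.24e-08 for adenoma and 1.09 ± 0.16, adjusted p = 0.00361 for co-culture over monoculture. Utp15 and Wdr75, also members of the processome, were called in co-culture with 0.74 ± 0.18 and 0.72 ± 0.17. Rrp9, a protein of the U3 particle, was not called in co-culture, where it differed by 0.90 ± 0.25, adjusted p = 0.0672. Ddx10, a helicase of this pathway, had the smallest adenoma difference of the group, 0.78 ± 0.13, adjusted p = 4.00e-04, and a co-culture difference of 0.18 ± 0.15 that was not called (adjusted p = 0.628).

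Of the large subunit assembly genes, 10 of 11 were higher in adenoma than in monoculture and 3 in co-culture. Rrp1b, a nucleolar protein of the RRP1 family, had the largest difference of the 39 in both comparisons. It was at 7.68, 7.64, 7.50 and 7.53 in the adenoma samples, 5.38 and 5.77 in co-cultured epithelium and 3.85 and 3.86 in monocultured epithelium. The 3 groups did not overlap: adenoma was above monoculture by 3.73 ± 0.22, adjusted p = 9.34e-08, and co-culture above it by 1.72 ± 0.25, adjusted p = 0.00361. The monoculture level is in the range of markers of other cell types in the same 2 samples (Col1a1 at 3.80 and 4.07, Csf1r at 3.59 and 3.95). It may not be above background, so every Rrp1b difference from monocultured epithelium given here may understate the change. Pes1, Bop1 and Wdr12 form the PeBoW complex needed to process the large subunit RNA. Wdr12 was at 7.30, 7.30, 7.06 and 7.05 in the adenoma samples, 5.60 and 5.66 in co-cultured epithelium and 4.59 and 4.75 in monocultured epithelium, with differences of 2.51 ± 0.13, adjusted p = 3.46e-08 for adenoma and 0.96 ± 0.15, adjusted p = 0.00472 for co-culture over monoculture. Pes1 differed by 1.64 ± 0.11, adjusted p = 4.08e-07 for adenoma and 0.68 ± 0.13, adjusted p = 0.0157 for co-culture.

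Bop1 was at 9.60, 9.70, 8.84 and 8.90 in the adenoma samples, 9.38 and 9.41 in co-cultured epithelium and 9.01 and 9.03 in monocultured epithelium. The adenoma samples fell on both sides of the epithelium, P21 and P23 above the co-culture and P34 and P36 below the monoculture. Bop1 differed by 0.24 ± 0.22 between adenoma and monoculture (adjusted p = 0.433, 95% interval -0.24 to 0.73) and by -0.13 ± 0.22 between adenoma and co-culture (adjusted p = 0.722, 95% interval -0.62 to 0.35). The co-culture samples lay above the monoculture samples, by 0.38 ± 0.26, which was not called (adjusted p = 0.529). The gene spans chr15:76452988-76477249 in GRCm38.p6, where the RefSeq table has Scx and Mroh1 overlapping it. Protein-coding genes also overlap Polr1e, Mybbp1a, Nop56, Dkc1, Nhp2, Wdr12, Noc2l and Gnl3. Which transcripts the probe sets of Bop1 and these genes read was not tested. Noc2l, the counterpart of yeast Noc2, which acts in pre-60S transport in yeast, was at 9.39, 9.06, 10.01 and 10.13 in the adenoma samples, 8.43 and 8.78 in co-cultured epithelium and 7.27 and 7.53 in monocultured epithelium, with an adenoma difference of 2.25 ± 0.29, adjusted p = 4.96e-05 and a co-culture difference of 1.21 ± 0.33, adjusted p = 0.0691, which was among the largest but not called.

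The 4 nucleolar organisers were all higher in adenoma than in monoculture, by 1.58 to 2.88, and Gnl3 and Ncl were higher in co-culture. Gnl3, nucleostemin, a GTP-binding protein of stem and tumour cell nucleoli, was at 9.65, 9.59, 9.43 and 9.48 in the adenoma samples, 7.40 and 7.92 in co-cultured epithelium and 6.48 and 6.84 in monocultured epithelium. The groups did not overlap, with differences of 2.88 ± 0.18, adjusted p = 2.00e-07 for adenoma and 1.00 ± 0.21, adjusted p = 0.0222 for co-culture over monoculture. Ncl, nucleolin, an abundant RNA-binding protein of the nucleolus, was at 11.23, 11.39, 11.21 and 11.11 in the adenoma samples, 10.01 and 10.09 in co-cultured epithelium and 9.37 and 9.40 in monocultured epithelium. Its differences were 1.86 ± 0.13, adjusted p = 3.99e-07 and 0.67 ± 0.15, adjusted p = 0.0287, adenoma and co-culture each against monoculture. Npm1, nucleophosmin, which forms the outer layer of the nucleolus, was at 11.08, 11.09, 11.14 and 10.95 in the adenoma samples, 9.44 and 9.90 in co-cultured epithelium and 8.88 and 9.11 in monocultured epithelium. Adenoma was 2.07 ± 0.18, adjusted p = 2.79e-06 above monoculture, and the co-culture difference of 0.67 ± 0.21 had an adjusted p of 0.109, and of 0.0156 with the replicate block. The helicase Ddx21 differed by 1.58 ± 0.13, adjusted p = 1.62e-06 for adenoma and by 0.53 ± 0.15, adjusted p = 0.0788 for co-culture, the second not called.

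**Figure D3:**
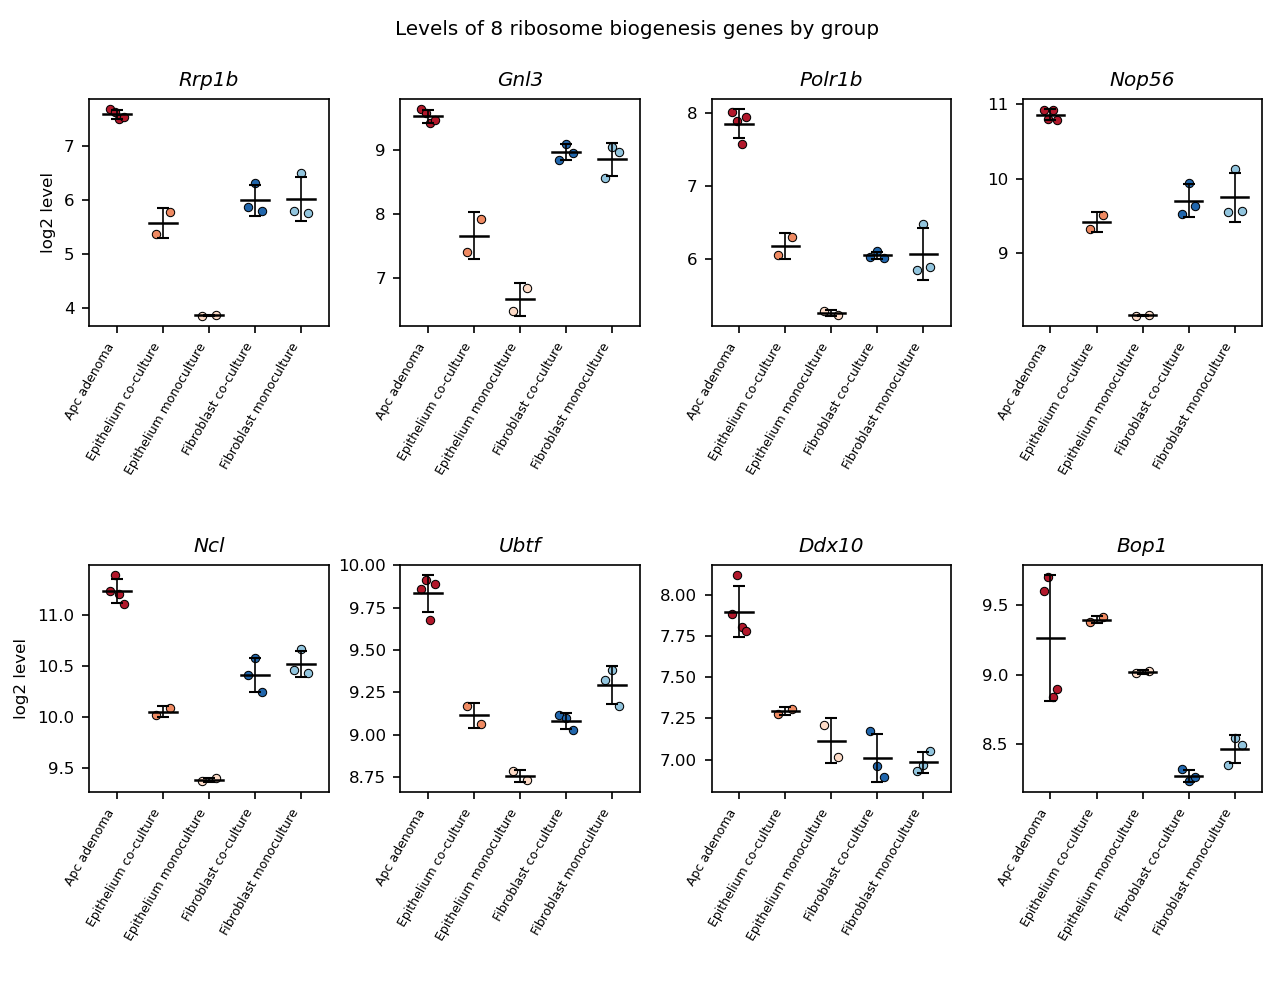
Log2 levels of 8 genes in each sample (points), with the group mean (line) and SD (bar), for adenoma (n = 4), co-cultured and monocultured epithelium (n = 2 each) and co-cultured and monocultured fibroblasts (n = 3 each); each panel has its own axis, which does not start at 0. Rrp1b stands at 7.50 to 7.68 in adenoma, 5.38 and 5.77 in co-culture and 3.85 and 3.86 in monoculture, while the adenoma samples of Bop1 split at 8.84 and 8.90 against 9.60 and 9.70.

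The 3 epithelial groups followed one order for nearly all of these genes. Group means ran monoculture, co-culture, adenoma from low to high in 38 of 39 genes, as in 26.3% of all genes, with Bop1 the exception. In 37 of 39 this order held with no overlap between samples, as in 11.7% of all genes; Polr1e and Bop1 were the other 2.

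No co-culture difference was called for these genes in fibroblasts. None of the 39 genes was called in either direction by limma, where 0% of all genes were called higher and 0.00553% lower, and none of the 39 had an unadjusted p under 0.05. The differences ran from -0.21 to 0.23 with a median of -0.02, 16 of 39 were positive, where 50.8% of all genes were, and the groups overlapped in 36. Of the other 3, 1 lay above and 2 below, where 3.54% of all genes lay above and 3.44% below without overlap. Polr1b differed by -0.02 ± 0.17, Polr1a by -0.05 ± 0.14, Npm1 by 0.10 ± 0.17 and Ubtf by -0.21 ± 0.11. Per animal the median was 0.07 in Pl_I, -0.17 in Pl_II and 0.02 in Pl_III. For Rrp1b the levels were 5.87, 6.32 and 5.79 in co-culture and 5.80, 6.50 and 5.76 in monoculture, a difference of -0.03 ± 0.20 with a 95% interval of -0.47 to 0.42. For Ncl they were 10.41, 10.58 and 10.24 in co-culture and 10.46, 10.67 and 10.43 in monoculture, a difference of -0.11 ± 0.12 with a 95% interval of -0.37 to 0.15. Pl_II was the highest in both groups for both genes.

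The co-culture responses of the 2 cell types were then compared directly. For 5 genes the epithelial response exceeded the fibroblast response, where 0.834% of all genes were called so and 0.271% the opposite way: Rrp1b by 1.74 ± 0.32, adjusted p = 0.029, Nop56 by 1.30 ± 0.26, adjusted p = 0.0398, Mybbp1a by 1.19 ± 0.24, adjusted p = 0.0411, Wdr12 by 1.11 ± 0.19, adjusted p = 0.0207 and Heatr1 by 1.06 ± 0.21, adjusted p = 0.0348. All 39 differences between the responses were positive, where 47.2% of all genes were, with a median of 0.74. A fit that took each animal as a replicate block called more genes throughout: 451 of all 18095 higher in place of 151, and 12 of the 39 in place of 5. Without the block, fewer of all genes were called higher in each fit with samples left out, and the number among the 39 depended on the samples kept. The number was 0 without the P30 co-culture or the P28 monoculture of epithelium or the Pl_I co-culture of fibroblasts, 1 without the P28 epithelial or the Pl_III fibroblast co-culture, 2 without the P30 epithelial monoculture, and 3 without the Pl_II fibroblast co-culture or the Pl_I or Pl_II fibroblast monoculture. Without P28 and Pl_III it was 0, with 38 of 39 differences positive and a median of 0.78.

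In monoculture, fibroblasts had more of these transcripts than epithelium. Of the 39 genes, 31 were higher in fibroblasts and none was lower, where 26.5% of all genes were called higher and 24.2% lower (limma), and the median difference was 1.10. The nucleolar organiser Gnl3 was at 8.57, 9.05 and 8.97 in fibroblasts and 6.48 and 6.84 in epithelium, a difference of 2.20 ± 0.19, adjusted p = 1.18e-06. Next in size were Rrp1b with 2.16 ± 0.23, Utp20 with 1.95 ± 0.17 and Mybbp1a with 1.85 ± 0.17. The 8 genes not called were Polr1c, Polr1e, Nhp2, Utp18, Noc4l, Ddx10, Rrp12 and Bop1, and of these Bop1 had the lowest difference, -0.55 ± 0.23, adjusted p = 0.0671, with every fibroblast sample below every epithelial one. For 31 genes every fibroblast sample lay above, where 33.2% of all genes lay above and 33.2% below without overlap. All 13 immune cell markers were higher in the fibroblast cultures, with Ptprc at 7.32 to 8.76 in fibroblasts and 2.86 to 2.87 in epithelium, and 14 of 19 cell cycle genes were higher and 1 lower. Their part in the ribosome gene result was not tested. Without P28 and Pl_III 26 of the 39 were higher.

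Among the adenoma animals, the T2-titled pair (P21 and P23) was compared with the other pair (P34 and P36). Of the 39 genes, 2 were called higher in the T2 pair (Bop1 and Utp20) and 1 lower (Noc2l). Over all genes 3.65% were called higher and 3.49% lower, so these counts are near the share over all genes. For Bop1 the levels were 9.60 and 9.70 in the T2 pair, against 8.84 and 8.90 in the other pair, a difference of 0.78 ± 0.12, adjusted p = 0.00173. For Utp20 they were 8.96 and 9.04 against 8.55 and 8.51, a difference of 0.47 ± 0.12, adjusted p = 0.0461, and for Noc2l 9.39 and 9.06 against 10.01 and 10.13, a difference of -0.84 ± 0.23, adjusted p = 0.0468. Leaving out any 1 of the 4 animals, which leaves 1 sample in its pair, assumed to vary like the other groups, left 1 gene called higher and 0 lower. The median over the 39 genes was 0.15, and 22 lay above and 5 below without overlap, where 25.2% and 26% of all genes did.

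Other genes of the pathway were counted by role, beside the 22.5% of all genes called higher and 18.5% called lower in adenoma. Between adenoma and monocultured epithelium 12 of 13 other small nucleolar ribonucleoprotein genes were higher and none lower, 35 of 42 other small subunit genes were higher and 1 lower, and 36 of 46 other large subunit genes were higher and 1 lower. For the RNA exosome and RNase MRP 17 of 22 were higher and none lower, and for the other RNA polymerase I genes 5 of 12 were higher and 1 lower. The lists were not tested against each other or against the 39 genes. Median differences were 1.32, 1.09, 1.14, 1.29 and 0.44 in that order, beside -0.03 over all genes. Tcof1, treacle, which binds ribosomal DNA with Ubtf, differed by 3.67 ± 0.25 (adjusted p = 3.44e-07), and by 1.46 ± 0.29 (adjusted p = 0.0168) in co-culture. Dimt1, a methyltransferase of the small subunit RNA, differed by 2.89 ± 0.14 (adjusted p = 2.33e-08) in adenoma and 1.14 ± 0.16 (adjusted p = 0.00345) in co-culture, and Mdn1, the large AAA ATPase that remodels pre-60S particles, by 2.60 ± 0.16 (adjusted p = 1.79e-07) and 1.26 ± 0.19 (adjusted p = 0.00396). Rpp25 and Rpp38, proteins shared by RNase P and RNase MRP, differed by 3.35 ± 0.24 (adjusted p = 4.43e-07) and 2.89 ± 0.15 (adjusted p = 3.80e-08) in adenoma, and by 2.11 ± 0.27 (adjusted p = 0.00199) and 1.40 ± 0.17 (adjusted p = 0.00181) in co-culture.

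The protein components of the ribosome itself were counted separately. Of 59 measured and tested, 44 were higher in adenoma than in monoculture and none was lower, where 22.5% of all genes were called higher and 18.5% lower. The median difference was 0.62. In co-culture none was called in either direction by limma, where 2.71% of all genes were called higher and 1.32% lower, so none of 59 is near that share. The co-culture median was 0.07, and 7 of 59 had an unadjusted p under 0.05, as had 3065 of all 18095 genes. Rps23, of the small subunit, had the smallest p, with 1.88 ± 0.22 (adjusted p = 2.16e-05) in adenoma and 0.91 ± 0.25 (adjusted p = 0.0672) in co-culture. Ribosomal protein genes have many processed copies in the genome, and signal from those copies was not tested.

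**Figure D4:**
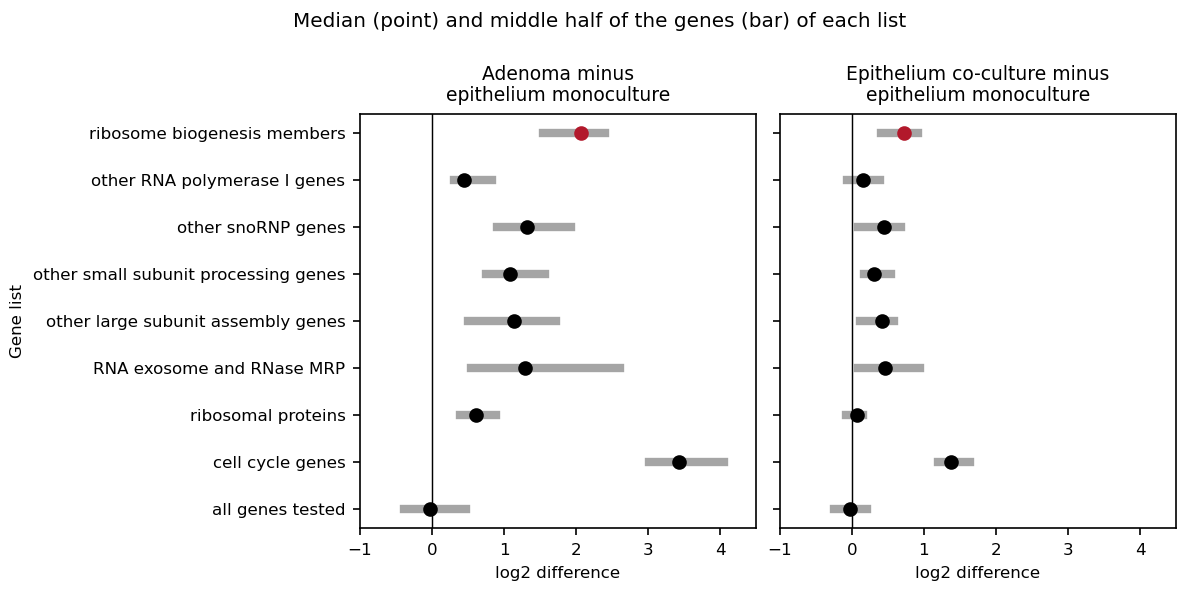
Median log2 difference (points) and the span from the lower to the upper quartile of genes (bars) for each list, for adenoma (left) and co-cultured epithelium (right) over monocultured epithelium. The 39 ribosome biogenesis genes have medians of 2.07 and 0.72, the ribosomal proteins 0.62 and 0.07, and all genes tested -0.03 and -0.02.

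Myc, the transcription factor whose textbook targets include this pathway, followed the same order as these genes over the 3 epithelial groups. Its level was 10.91, 10.71, 10.37 and 10.13 in adenoma, 9.23 and 9.41 in co-cultured epithelium and 7.23 and 7.81 in monocultured epithelium, with no overlap between the groups. The differences from monoculture were 3.01 ± 0.30 (adjusted p = 7.74e-06) for adenoma and 1.80 ± 0.35 (adjusted p = 0.0158) for co-culture. In fibroblasts Myc was at 8.76, 9.45 and 8.84 in co-culture and 8.75, 9.45 and 8.52 in monoculture, and the groups overlapped. Of 13 genes of the Myc network, 2 were higher in adenoma than in monoculture and 6 were lower, where 22.5% of all genes were called higher and 18.5% lower. The other higher one was Mga, a Max-binding repressor, by 0.91 ± 0.12 (adjusted p = 7.94e-05). Among the lower were Mxd1, a Max-binding antagonist of Myc, by -2.17 ± 0.17 (adjusted p = 1.20e-06), and Mlxipl, the glucose-responsive factor ChREBP, by -4.84 ± 0.57 (adjusted p = 2.77e-05). In co-culture only Myc itself was called among the 13.

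**Figure D5:**
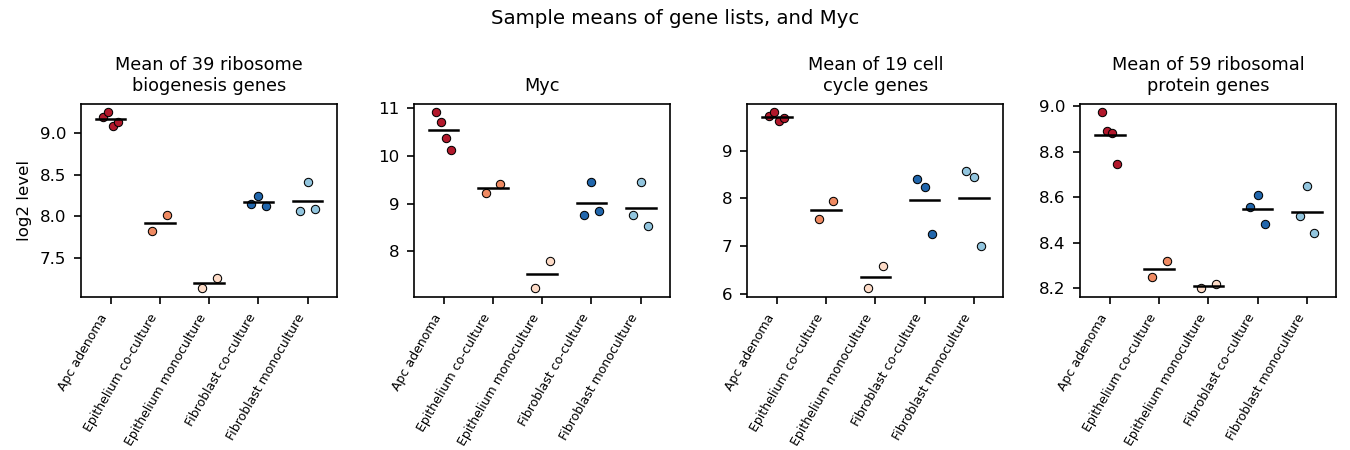
Per-sample log2 levels (points) and group means (lines) of 39 ribosome biogenesis genes, Myc, 19 cell cycle genes and 59 ribosomal protein genes; each panel has its own axis, which does not start at 0. In the ribosome biogenesis panel adenoma lies at 9.08 to 9.24, co-cultured epithelium at 7.82 and 8.02, monocultured epithelium at 7.14 and 7.27, and fibroblasts at 8.07 to 8.42.

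The genes are spread over 17 chromosomes. In the RefSeq table of GRCm38.p6, 6 of the 40 hold small nucleolar RNA genes within their bounds (Nop56, Nop58, Dkc1, Wdr43, Ncl and Gnl3), which is 15% against 1.7% of 21900 protein-coding genes. Nop56 holds 5 such genes and Nop58 holds 4.

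Promoters are shown because nearly all of these genes and Myc, which binds the E-box CACGTG, followed the same order over the 3 epithelial groups. In fibroblasts the values were mixed. Mean Myc was 8.91 in fibroblast monoculture and 9.02 in fibroblast co-culture, below the 9.32 of co-cultured epithelium. The mean of the measured ribosome biogenesis genes was 8.19 and 8.17 in those groups, above the 7.92 of co-cultured epithelium. Within each fibroblast group, Pl_II was the highest for both. Its Myc was 9.45 in each, and its gene mean was 8.42 in monoculture and 8.24 in co-culture. A role of Myc was not tested. RefSeq promoter sequences of 300 bases, 250 before and 50 from the start site on, were found for 35 of the 40 genes. The E-box, searched on both strands and identical on each, was present in the promoters of 7 of the 35 genes (20%), in 19.5% of 118 other genes of the pathway lists, and in 8.09% of all 27025 genes of the table. The 7 were Mybbp1a, Utp20, Wdr43, Nop2, Pes1, Utp18 and Rrn3. The E-box began 40 bases after the start site in Mybbp1a and 37 bases after it in Utp20, the 2 with the largest adenoma differences among the 7, whereas Rrp1b, which had the largest difference of all, had none in this window. The 3 promoters follow, with the E-box in capitals, read 5′ to 3′ along each gene's strand, at chr11:72441077-72441376 (plus strand), chr10:88826765-88827064 (minus strand) and chr17:32035912-32036211 (plus strand).
Mybbp1a: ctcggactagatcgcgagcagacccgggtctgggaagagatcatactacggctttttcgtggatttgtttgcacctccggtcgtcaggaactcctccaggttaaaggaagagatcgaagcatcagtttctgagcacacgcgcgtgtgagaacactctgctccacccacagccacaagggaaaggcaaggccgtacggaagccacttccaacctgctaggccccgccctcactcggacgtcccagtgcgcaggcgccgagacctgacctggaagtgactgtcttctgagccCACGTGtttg
Utp20: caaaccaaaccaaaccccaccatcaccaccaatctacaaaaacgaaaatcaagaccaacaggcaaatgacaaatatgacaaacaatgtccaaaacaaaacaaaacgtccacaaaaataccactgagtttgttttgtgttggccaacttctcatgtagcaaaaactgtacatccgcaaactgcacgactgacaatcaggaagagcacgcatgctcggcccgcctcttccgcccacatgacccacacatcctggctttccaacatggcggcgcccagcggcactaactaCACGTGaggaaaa
Rrp1b: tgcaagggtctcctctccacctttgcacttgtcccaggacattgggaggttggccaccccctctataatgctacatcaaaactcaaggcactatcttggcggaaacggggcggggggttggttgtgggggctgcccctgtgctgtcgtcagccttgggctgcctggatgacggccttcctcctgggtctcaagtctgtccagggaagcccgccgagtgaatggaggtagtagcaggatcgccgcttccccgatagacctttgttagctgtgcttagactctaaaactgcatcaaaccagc
A match of these letters is a description of the sequence and does not show binding.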

How the data were processed

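RNA from 16 samples was amplified and labelled from 150 ng and hybridised to mouse whole-transcript arrays, per the labels' protocols. The authors deposited log2 probe set levels. The submitters' processing notes name RMA, and no source used here gives its version or settings. RMA corrects background, brings arrays to one distribution and summarises probes, so levels are relative within an array set and a shift shared by all genes would not be seen. Probe sets were named from the platform annotation: 23521 carried 1 gene symbol, 1814 several and 16010 none. The brightest probe set stood for each of 22180 genes. Technical repeats were averaged, leaving 14 samples. Genes whose highest group mean exceeded 2.67, the level under which 30% of probe sets have their mean, were tested, 18095 in all, including all 39 genes measured. Passing this filter does not show a level above background, for which the deposited values give no call.

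Group means were fitted with limma 3.58.1 in R 4.3.3 to all 5 groups, with empirical Bayes, 2-sided tests and Benjamini-Hochberg adjustment over all genes tested, called at adjusted p under 0.05. Errors written after ± are standard errors of this fit. The T2 comparison split adenoma in 2. The script was checked on simulated data. Monoculture and co-culture samples share animals per the labels, and their deviations correlated (0.33 in epithelium, 0.51 to 0.79 in fibroblasts over all genes), so the animal was fitted as a replicate block as an alternative. Whether different animals were handled on separate days is not stated; precision is limited by how many arrays there are.

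The 40 genes and all lists were chosen with earlier results of these data known. Named were Ncl, Npm1, Fbl, Polr1a, Polr1b, Rrn3, Ubtf and Nolc1, in each role the 2 largest and 1 smallest adenoma differences and the 2 largest co-culture differences, elsewhere the called genes with the smallest p, and up to 4 genes per other list. Other genes named (such as Gar1, Pes1, Utp15, Wdr75 and Polr1e, and those named for not being called or for a sequence feature) were added after their values were seen. Alternatives were a filter change, other probe set rules, cyclic loess, a 2-fold minimum, other priors, fits on the compared groups only, 1 array per animal, and leaving out samples. Probe sets with several symbols were left out.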

Additional observations from a re-analysis of the deposited data

Results flagged for a closer look

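For 5 genes the co-culture responses of epithelium and fibroblasts differed in the test of that difference (limma, adjusted over all genes): Mybbp1a by 1.19, Nop56 by 1.30, Heatr1 by 1.06, Wdr12 by 1.11 and Rrp1b by 1.74, each the epithelial response minus the fibroblast response. In 2 of 2 epithelial animals each of these genes was higher in co-culture, as were all 39. These are the samples the test used, so this is no separate support for the 5. Of 41 sets of 4 adenoma values tested for a sample apart from the others, 0 had one.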

How the results depend on the processing

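Across the alternatives, 1046 values of named genes kept their direction and call, 120 kept their direction and lost the call and 4 gained it. Another 6 changed sign with no call on either side, all in fibroblast co-culture, for 4 genes (Polr1a, Polr1b, Rrn3 and Npm1). No called value changed sign. The adenoma counts stood at 38 against monoculture and 35 to 37 against co-culture with any 1 sample left out. Counts that moved by more than 1.5 times were these. With a 2-fold minimum, 5 genes were higher in epithelial co-culture, and 0 higher and 0 lower in the T2 pair. In fits on the compared groups only, 0 were higher in epithelial co-culture, 1 in the comparison of responses and 1 in the T2 pair, and 1 (Bop1) was lower in fibroblast than in epithelial monoculture. The first of these fits called 0 of all 18095 genes. With no filter, 1 was higher and 0 lower in the T2 pair. With the trended robust prior, 8 were higher in the comparison of responses. Without P28 and Pl_III, 0 were higher in epithelial co-culture and 0 in the comparison of responses. The replicate block gave 12 genes higher in the comparison of responses, adding 7 (Polr1a, Dkc1, Nolc1, Wdr75, Pes1, Ncl and Gnl3) and losing 0. It gave 23 in epithelial co-culture, adding 8 (Nop58, Dkc1, Wdr43, Nop14, Noc4l, Nop2, Nop16 and Npm1) and losing Utp20, and 0 in fibroblasts. Among the 39 genes it changed no other call in these comparisons. Over all genes it raised the number called higher from 151 to 451 in the comparison of responses and from 490 to 910 in epithelial co-culture. The block could not be fitted to comparisons between different animals. With 1 sample left out, counts were 3 to 10 in epithelial co-culture, 0 to 5 in the comparison of responses, and 1 to 1 higher and 0 to 0 lower in the T2 pair. With samples left out, fewer of all genes were also called higher in epithelial co-culture and in the comparison of responses. The causes were not tested. With 2 epithelial samples a group, an epithelial difference that was not called is not shown to be absent.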
